A study of Mus musculus with 2 samples.

Results

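Mature neutrophils were 217 of 18975 cells kept from mouse plantaris muscle, 38 of 7738 in a sham library and 179 of 11237 in a tenotomy library. They were chosen by their transcripts. A kept cell had at least 500 unique molecular identifiers (UMIs, the count of captured transcripts), at least 300 genes and at most 10% mitochondrial UMIs. Of its UMIs, S100a8 and S100a9 together made up at least 2%. It also held at least 3 UMIs over Csf3r, Cxcr2, Il1r2 and Retnlg, under 10 over Ngp, Camp and Ltf, and under 3 over Csf1r and C1qa. The levels of these 11 genes describe how the cells were picked and, apart from that of Retnlg, support nothing below. Retnlg is used further on to divide the mature cells, so what rests on that division also depends on the selection. Cells that met the S100 limit with under 3 UMIs of Csf1r and C1qa but had at least 10 UMIs over Ngp, Camp and Ltf were the cells for comparison, 46 in sham and 328 in tenotomy, called granule-gene-high cells here.

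The plantaris of 1 leg of male C57BL/6 mice, 12 weeks old, underwent tenotomy, the cutting of a tendon, and the plantaris of the other leg was the sham side. The sources used here do not name the tendon. After 4 days, muscles of 5 mice were pooled for each side, digested with collagenase type II and sorted for living cells that took up Calcein AM and excluded propidium iodide. Each pool gave 1 droplet library, so no value has a replicate and treatment and library cannot be told apart. Both sides came from the same mice, so circulating cells of the sham side had also been in operated animals. Intervals in brackets are 95% intervals and cover counting error only.

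Neutrophils are made in bone marrow, where granules form in a fixed order: azurophil granules with Elane, Mpo and Prtn3 in promyelocytes, specific granules with Ltf, Camp, Ngp and Lcn2 in myelocytes, and gelatinase granules with Mmp9 last. Mature cells stop dividing, gain the receptors Cxcr2 and Csf3r, and enter blood and then injured tissue. There they release chemokines and interleukin 1 beta and are cleared by macrophages.

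The cells of each library were divided by their Retnlg level, after the values had been seen. The granule genes Mmp8 and Lcn2 were higher in cells high in Retnlg and the chemokine Cxcl2 in cells low in it. Cxcl3 was higher in tenotomy. The promoters of these 5 genes, on which the results turn, are shown. Each is the 250 bases before the annotated start in RefSeq on GRCm38.p6, 5′ to 3′ on the strand of the gene. They lie at chr16:48872358-48872607 on the plus strand (Retnlg), chr9:7558179-7558428 plus (Mmp8), chr2:32387740-32387989 minus (Lcn2), chr5:90903649-90903898 plus (Cxcl2) and chr5:90785851-90786100 plus (Cxcl3). Capitals mark matches, on either strand, to a C/EBP type motif (TTGCNNAA), a PU.1 type motif (GAGGAAGT) or an NF-kappa B type motif (GGGA and TTCC with any 2 bases between them). C/EBP is a family of transcription factors and PU.1 is a single factor, and both act in myeloid cells. NF-kappa B is a main activator of inflammatory genes.
Retnlg: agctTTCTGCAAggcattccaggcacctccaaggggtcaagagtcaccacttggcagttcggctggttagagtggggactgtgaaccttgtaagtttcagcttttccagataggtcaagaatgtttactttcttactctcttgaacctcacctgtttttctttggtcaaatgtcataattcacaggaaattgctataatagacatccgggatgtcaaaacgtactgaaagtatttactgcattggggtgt
Mmp8: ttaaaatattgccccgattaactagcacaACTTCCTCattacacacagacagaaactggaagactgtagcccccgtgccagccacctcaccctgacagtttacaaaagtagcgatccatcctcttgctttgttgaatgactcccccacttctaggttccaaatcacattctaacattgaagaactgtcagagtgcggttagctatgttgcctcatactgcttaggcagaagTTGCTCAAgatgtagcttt
Lcn2: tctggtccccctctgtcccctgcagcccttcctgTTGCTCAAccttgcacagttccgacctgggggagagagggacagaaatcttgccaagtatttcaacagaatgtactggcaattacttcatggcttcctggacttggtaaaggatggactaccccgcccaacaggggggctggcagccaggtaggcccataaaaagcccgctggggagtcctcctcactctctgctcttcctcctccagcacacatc
Cxcl2: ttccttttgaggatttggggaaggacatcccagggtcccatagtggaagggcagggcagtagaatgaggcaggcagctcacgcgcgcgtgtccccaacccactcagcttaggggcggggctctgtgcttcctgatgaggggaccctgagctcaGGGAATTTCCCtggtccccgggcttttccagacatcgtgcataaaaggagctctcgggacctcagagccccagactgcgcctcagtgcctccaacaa
Cxcl3: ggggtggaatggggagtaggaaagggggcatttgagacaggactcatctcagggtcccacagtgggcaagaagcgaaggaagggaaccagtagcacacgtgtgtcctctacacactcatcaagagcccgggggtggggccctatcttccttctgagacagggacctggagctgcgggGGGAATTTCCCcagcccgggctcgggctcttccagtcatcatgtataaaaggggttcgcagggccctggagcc

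The Retnlg window held 1 C/EBP type match, at bases 5 to 12 on the reverse strand. The Mmp8 window held a PU.1 type match at bases 30 to 37, on the reverse strand, and a C/EBP type match at bases 232 to 239, whose first base lies 19 bases before the start. Lcn2 had a C/EBP type match at bases 35 to 42. The windows of both chemokines held GGGAATTTCC, at bases 154 to 163 in Cxcl2 and 178 to 187 in Cxcl3, and each overlaps a reverse-strand match 1 base further on. Of 32536 RefSeq windows of this length, 9.57% held the C/EBP type motif, 2.45% the PU.1 type and 1.21% the NF-kappa B type. Windows of 17 genes were scanned. Besides the 5 shown, those of S100a9, Ngp and Ltf held C/EBP type matches, that of S100a8 a PU.1 type match, and those of Csf3r and Nfkbia NF-kappa B type matches. The windows of Ccl3, Il1b, Tnf, Cxcr2, Il1r2 and Camp held no match to these letters. A match is a description of the sequence and no more.

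The libraries held 8463 sham and 11950 tenotomy barcodes with 47781353 and 94556283 UMIs. Kept cells had medians of 4942.5 and 5964 UMIs. Mature neutrophils were shallower, with a median of 3440.5 UMIs in sham (1568 to 14327) and 1233 in tenotomy (540 to 6588), so the sides differed in depth. The libraries shared 33 barcodes, none of them in a mature neutrophil. Of the mature neutrophils, 0 sham and 4 tenotomy cells passed the doublet score threshold, and none was removed for it.

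Some of the selected barcodes carried transcripts of other cells. In 9 of the 38 sham cells and 7 of the 179 tenotomy cells, at least 0.5% of UMIs came from marker genes of endothelial, mesenchymal, muscle, erythroid, lymphoid, eosinophil, basophil or mast cells. The 9 sham barcodes had a median of 9436 UMIs and held 72918 of the 174701 UMIs of the sham set. The remaining 29 sham and 172 tenotomy cells are called the restricted set; this limit was chosen after the data had been seen. In the restricted set the summed level of 7 endothelial markers was 196 counts per 1000000 UMIs of the set (CPM) in sham and 78.0 CPM in tenotomy, where the full set had 5000 and 639 CPM. Mesenchymal markers summed to 1010 and 858 CPM in the restricted set and to 7860 and 850 CPM in the full set. Depth still differed there, with medians of 3352 and 1227 UMIs, and 1 cell held 12.7% of the sham UMIs.

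**Figure D1:**
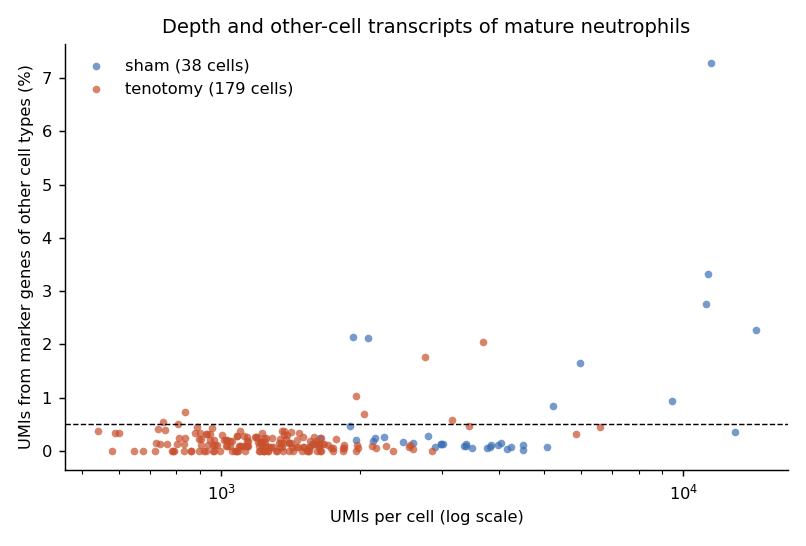
Each point is 1 mature neutrophil, with its UMIs on a log axis and the percentage of its UMIs from marker genes of other cell types on the vertical axis; the dashed line is the 0.5% limit. The 9 sham barcodes above the line include the deepest one, with 14327 UMIs, and the tenotomy cells lie between 540 and 6588 UMIs.

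Markers of other stages and cell types were checked in the restricted set, since the neutrophil markers themselves chose the cells. Of 10 precursor genes, among them the limited Ngp, Camp and Ltf, 8 were at 0 in sham, namely Elane, Prtn3, Ctsg, Ms4a3, Camp, Ltf, Fcnb and Chil3, and the list summed to 78.6 CPM; in tenotomy Elane, Ctsg and Fcnb were at 0 and the list summed to 884 CPM. T and natural killer cell markers were all at 0 in sham, and in tenotomy 2 of 7 had UMIs, at 30.3 CPM in sum. Monocyte and macrophage markers summed to 157 CPM in sham, with C1qb, C1qc, Cx3cr1, Ccr2 and Ms4a7 among those at 0, and to 707 CPM in tenotomy, with Cx3cr1 at 0; the highest cell had 0.0859% and 0.338% of its UMIs from this list. Dendritic cell markers summed to 78.6 and 815 CPM, with Xcr1 and Clec9a at 0 in both libraries and 1 tenotomy cell at 2.73%. Of the selected cells, 4 in sham and 16 in tenotomy had an S100 share of 2 to 3%, while 0 and 35 cells that met the other limits lay just below, at 1 to 2%. Marker UMIs of 3 to 5 were seen in 0 sham and 27 tenotomy members, and 0 and 24 cells lay just outside with 1 or 2. No UMI of Ngp, Camp or Ltf was found in 33 sham and 121 tenotomy members, 2 and 16 had 5 to 9, and 1 and 21 cells lay just outside with 10 to 19.

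Mature neutrophils made up a larger share of the tenotomy library than of the sham library. Of kept cells they were 0.491% (0.348 to 0.673) in sham. In tenotomy they were 1.59% (1.37 to 1.84), which is 3.24 times the sham share (2.29 to 4.6). In the restricted set the shares were 0.375% and 1.53%, a ratio of 4.08 (2.76 to 6.05). Granule-gene-high cells went from 0.594% to 2.92%, a ratio of 4.91 (3.61 to 6.68), and with the same restriction from 25 to 312 cells, a ratio of 8.59 (5.72 to 12.9). The restriction took out 21 sham and 16 tenotomy granule-gene-high cells, and 9 and 7 mature cells. All kept cells stayed in the denominators, so both restricted ratios depend on this uneven removal. Of the 46 granule-gene-high cells in sham, 19 had under 2000 UMIs and 12 of these had no UMI of the mature markers, against 0 such cells in tenotomy. Among mature and granule-gene-high cells, 45.2% (34.3 to 56.5) were mature in sham and 35.3% (31.1 to 39.6) in tenotomy, and these intervals overlap; restricted, the values were 53.7% (39.6 to 67.4) and 35.5% (31.3 to 40). Cells with at least 3 UMIs of Csf1r and C1qa and an S100 share below the limit, which carry monocyte and macrophage markers, went from 6.35% to 38.7% of kept cells. A share of sorted cells depends on how many other cells were recovered, and numbers per muscle were not measured.

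Against granule-gene-high cells of the same library, mature neutrophils carried more transcripts of cytokines, pattern receptors and survival genes and fewer of azurophil granule proteins and the cell cycle. Because Ngp, Camp and Ltf separated the cells, this contrast is a description with no test. With all members, 489 of 1709 genes measured in sham were at least 2-fold higher in mature cells (28.6%) and 346 lower (20.2%), and in tenotomy 505 of 2363 were higher (21.4%) and 647 lower (27.4%). In the restricted set, 511 of 2271 genes measured in tenotomy were at least 2-fold higher in mature cells (22.5%) and 642 lower (28.3%); in sham, 328 of 1204 were higher (27.2%) and 328 lower (27.2%). Of 1152 genes measured in both libraries, 288 were at least 2-fold higher in mature cells of tenotomy, and 263 of these (91.3%) were so in sham too, with 2 opposite. Of 305 lower in tenotomy, 200 (65.6%) were lower in sham, with 4 opposite. With all members the shares were 86.5% and 53.6%.

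Cytokines and chemokines stood at the top of this contrast. Il1b, the gene of interleukin 1 beta, had 53.2 CPM in granule-gene-high and 4210 CPM in mature cells of sham, and 231 and 4850 CPM in tenotomy, which is 79.2-fold (48.9 to 137) and 21-fold (18.6 to 23.7). Ccl4, a chemokine that draws lymphocytes and monocytes, had 3.13 and 1550 CPM in sham, where the first value is 1 UMI, and 59.5 and 2230 CPM in tenotomy, a 37.5-fold difference (30 to 47.5). For Cxcl2, a ligand of Cxcr2 that attracts neutrophils, the folds were 319 (146 to 874) in sham and 19.7 (17.9 to 21.6) in tenotomy. All 7 measured cytokine genes were at least 2-fold higher in mature cells of sham, with a median log2 fold of 5.37, and 12 of 14 in tenotomy, with a median of 3.51. The median of all measured genes was -0.19 and -0.25.

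Genes that sense damage followed. Nlrp3, the sensor of the inflammasome that processes interleukin 1 beta, was 54.4-fold higher in sham (17.6 to 272) and 34.5-fold higher in tenotomy (21.2 to 58.8). Clec4d, a lectin receptor for microbial glycolipids, was 38.9-fold and 17.8-fold higher. Acod1, which makes itaconate in activated myeloid cells, was 44.4-fold and 19.6-fold higher. In the list of pattern recognition and inflammasome genes, 6 of 7 measured members were at least 2-fold higher in sham and 7 of 9 in tenotomy. Receptors for chemoattractants other than Cxcr2, a gene of the selection, gave 5 of 7 and 6 of 8, and survival and apoptosis genes 6 of 7 and 8 of 12. Of all measured genes 27.2% in sham and 22.5% in tenotomy were at least 2-fold higher. Ccrl2, an atypical receptor that binds chemerin, was 16.8-fold higher in tenotomy (12 to 23.7), and in sham, on 4 and 17 UMIs, 13.3-fold.

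Azurophil granule genes were lower in mature cells for 3 of 4 measured members in sham and 5 of 6 in tenotomy. The 1 higher in each was Srgn, 9.96-fold in sham and 5.27-fold in tenotomy. Elane, neutrophil elastase, had 4062 UMIs in granule-gene-high cells of tenotomy and 0 in the restricted mature cells, at least 204-fold lower, and 114 against 0 UMIs in sham, at least 12.1-fold lower. Floors for a value of 0 are 3 UMIs per library. Chil3, a chitinase-like protein of immature neutrophils, had 4570 CPM in granule-gene-high and 30.3 CPM in mature cells of tenotomy, 151-fold lower (73.1 to 375), and 7180 CPM and 0 in sham, at least 244-fold lower. Prtn3, proteinase 3, was 152-fold lower in tenotomy and at least 5.95-fold lower in sham. Mpo, myeloperoxidase, was 104-fold lower in tenotomy (28.8 to 860) on 1381 and 2 UMIs, while in sham only 16 and 1 UMIs were counted. Cell cycle genes were at least 2-fold lower for 20 of 21 measured members in tenotomy and 10 of 11 in sham. Lower genes were not of these groups alone. Cybb, the catalytic subunit of the NADPH oxidase, had 1540 and 78.6 CPM in granule-gene-high and mature cells of sham and 1660 and 273 CPM in tenotomy. Of oxidative phosphorylation genes, 9 of 22 in sham and 8 of 27 in tenotomy were at least 2-fold lower. Of all measured genes 27.2% and 28.3% were, so the tenotomy count is near the share of all genes. Cells were also counted after thinning to 1000 UMIs, with the cycle list taken without H2afz, Hmgb2, Tuba1b, Tubb5 and Stmn1. At least 2 UMIs of it were found in 4 of 127 mature cells (3.15%, 0.865 to 7.87) and 55 of 305 granule-gene-high cells (18%) of tenotomy. In sham it was 0 of 29 mature cells, which allows a share of up to 11.9%, and 3 of 25 granule-gene-high cells (12%, 2.55 to 31.2). The sham intervals overlap.

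**Figure D2:**
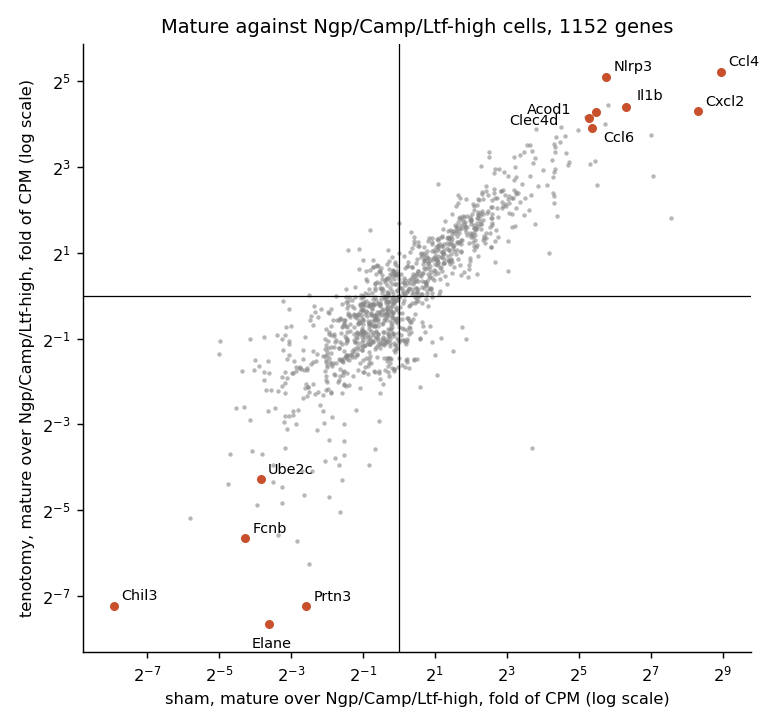
Each point is 1 of 1152 genes measured in both libraries, with its fold of CPM in mature over granule-gene-high cells (restricted set) in sham on the horizontal and in tenotomy on the vertical log axis; genes with 0 UMIs on one side are placed at the floor of 3 UMIs. Il1b, Ccl4, Cxcl2 and Nlrp3 lie at the upper right in both libraries, and Elane, Chil3, Prtn3 and Fcnb at the lower left.

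The mature neutrophils were not uniform. Retnlg, which encodes a resistin-like protein secreted by neutrophils, ranged from 0 to 7.53% of the UMIs of a restricted sham cell, with a median of 0.798%, and from 0 to 11.7% in tenotomy, with a median of 1.72%. Cells with at least 2% were called Retnlg-high and those under 0.5% Retnlg-low, a division made after the values had been seen. Sham had 9 high, 9 intermediate and 11 low cells, and tenotomy had 84, 29 and 59. The Retnlg-high share was 31% (15.3 to 50.8) and 48.8% (41.2 to 56.6), with overlapping intervals. Median depth was 4154 UMIs in high and 2902 in low cells of sham, and 1381.5 and 1103 in tenotomy. Retnlg belongs to the genes of the selection, so these cells are a range, not types. A shallow cell with little Retnlg needed UMIs of Csf3r, Cxcr2 or Il1r2 to reach the limit of 3 UMIs. Membership of the Retnlg-low class thus depends on the selection and on depth, and how far was not tested. The median S100 share was 19.7% and 19.9% in high and 7.44% and 4.46% in low cells of sham and tenotomy.

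Several specific granule genes were higher in Retnlg-high cells. Mmp8, neutrophil collagenase, had 1150 CPM in Retnlg-high and 49.1 CPM in Retnlg-low cells of sham, and 2530 and 74.5 CPM in tenotomy, 23.4-fold (6.06 to 201) and 34-fold (14.4 to 106). Lcn2, the iron-sequestering lipocalin of specific granules, was 10.9-fold and 8.56-fold higher in Retnlg-high cells. Ly6g, the surface antigen by which mouse neutrophils are sorted, had 19 against 1 UMIs in sham and 32 against 0 in tenotomy, at least 6.5-fold. Cybb had 526 against 14.9 CPM in tenotomy, 35.3-fold on 58 and 1 UMIs, but 3 against 3 UMIs in sham. Across cells, the sum of 9 specific granule genes, without Ngp, Camp and Ltf of the selection, had a Spearman coefficient with Retnlg of 0.80 over 29 sham cells and 0.75 over 172 tenotomy cells. For azurophil granule genes it was -0.37 in both. Nearly all UMIs of that list in these cells were of its member Srgn, 1432 in sham and 2294 in tenotomy. Elane had 0 in both and Mpo 1 and 2, so the value describes Srgn and not those genes. Mmp9, the gelatinase of late granules, had 1240 and 565 CPM in high and low cells of sham but 1330 and 1460 CPM in tenotomy. These cells share a library, their depths differ, and both measures are shares of one total.

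Some chemokines were higher in Retnlg-low cells and others not. Cxcl2 had 1610 CPM in Retnlg-high and 10300 CPM in Retnlg-low cells of sham, and 2920 and 17100 CPM in tenotomy, 6.44-fold (4.83 to 8.74) and 5.86-fold (5.17 to 6.65). Ccl3, a chemokine for monocytes and neutrophils, had 30.3 and 246 CPM in sham, which are 1 and 10 UMIs, and 145 and 3100 CPM in tenotomy, 21.3-fold (12.8 to 38). Bcl2a1b, an inhibitor of apoptosis of the Bcl2 family, was 7.02-fold and 17-fold higher in Retnlg-low cells; its near-identical copies Bcl2a1a and Bcl2a1d make its count uncertain. Il1rn, the interleukin 1 receptor antagonist, was 2.99-fold and 5.35-fold higher. Ccl6, a chemokine for myeloid cells, went the other way, with 3180 CPM in high and 1420 CPM in low cells of sham and 4200 and 1790 CPM in tenotomy, 2.23-fold and 2.35-fold higher in Retnlg-high cells. Ccl4 had 5410 CPM in low and 1040 CPM in high cells of tenotomy, 5.18-fold (4.19 to 6.45). In sham it had 639 CPM in low and 2120 CPM in high cells, but 1 Retnlg-high cell held 62 of the 70 Ccl4 UMIs of its class, and without it Retnlg-low cells had 2.29-fold more (1.01 to 5.84).

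Genes of late maturation did not share a direction. Hdc, the enzyme that makes histamine, had 2910 and 2920 CPM in high and low cells of sham and 3100 and 3470 CPM in tenotomy. Msrb1, a methionine sulfoxide reductase, had 2640 and 1960 CPM, and 2860 and 2470 CPM. Asprv1, a protease of late neutrophils, had 364 and 393 CPM in sham but 227 and 700 CPM in tenotomy, 3.08-fold higher in Retnlg-low cells. Over all measured genes, 130 of 342 (38%) were at least 2-fold higher in Retnlg-low cells of sham and 149 of 696 (21.4%) in tenotomy, with 38 (11.1%) and 130 (18.7%) lower. The deepest sham cell, with 12955 UMIs, held 31.8% of the UMIs of the sham Retnlg-low class, and without it 43 of 225 (19.1%) were higher and 22 (9.78%) lower. Of 315 genes measured in both libraries, 65 were higher in Retnlg-low cells of tenotomy and 40 of these (61.5%) were so in sham, with 2 opposite; 29 were lower and 18 of them (62.1%) were so in sham, with 0 opposite. Without the deepest cell, 24 of 42 (57.1%) and 12 of 27 (44.4%) went the same way in sham, with 1 opposite each.

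**Figure D3:**
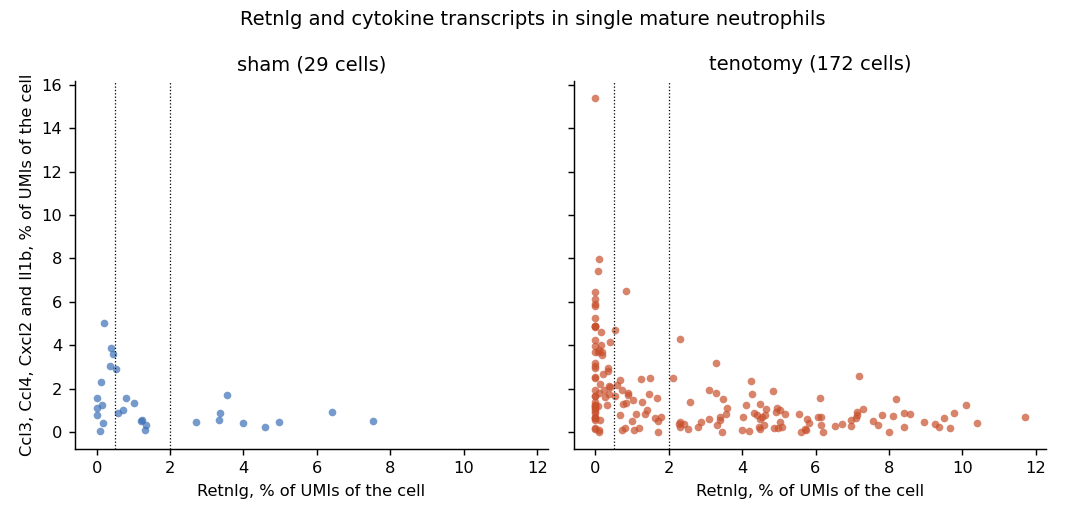
Each point is 1 mature neutrophil of the restricted set, with the percentage of its UMIs from Retnlg on the horizontal axis and from Ccl3, Ccl4, Cxcl2 and Il1b together on the vertical axis, for 29 sham (left) and 172 tenotomy cells (right); dotted lines are at 0.5% and 2%. Every cell with a cytokine share above 5% has under 1% Retnlg, and the highest, 15.4%, is a tenotomy cell.

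Tenotomy was then compared with sham within mature neutrophils. A gene was measured with at least 25 UMIs and 50 CPM in the library where it was higher, and at least 10% there of the CPM over all kept cells. Over all members 156 of 1465 genes were at least 2-fold higher in tenotomy (10.6%) and 152 lower (10.4%), and in the restricted set 171 of 1145 were higher (14.9%) and 48 lower (4.19%). The sham set held fewer UMIs, so 25 UMIs are a higher CPM there, and genes higher in sham were less easily measured. In the restricted set mt-Nd3, with 216 CPM in sham and 43.4 in tenotomy, was not measured. S100a4, with 29.5 and 156 CPM, was. Counts of higher and lower genes and medians, here and in the lists below, are tilted toward higher by this filter. The lower genes with the firmest intervals over all members, Myoc, Dcn, Gsn, Ogn, Clec3b, Timp4, Cavin2, Ptprb and Igfbp6, are known from fibroblast-like and endothelial cells. Their level went with the 9 sham barcodes: Dcn, the matrix proteoglycan decorin, had 1850 CPM in sham and 32.5 in tenotomy over all members but 118 and 34.7 CPM in the restricted set, and Gsn, gelsolin, went from 5240 and 330 CPM to 658 and 329. Mcpt4 and Cma1, proteases of mast cells, were among the highest in tenotomy over all members and were at 0 in the restricted cells. Adpgk, an ADP-dependent glucokinase, had 19.6 and 264 CPM there, 13.5-fold (3.57 to 114), in 2 and 37 cells, and was 4.04-fold higher when the selection was made after thinning. The first 12 higher genes of the restricted set also held Cxcl12 (9.82 and 286 CPM), with 98.5% of its tenotomy UMIs in 1 cell. Cd74 (39.3 and 351 CPM), H2-Eb1 (9.82 and 173), Crip1 (9.82 and 186) and Dbi (0 and 147) were among them too. In that order the folds over all members were 1.25, 0.955, 1.42, 0.755 and 4.62. Values below are of the restricted set, with those of all members where the fold differs by over 1.5 times or crosses 2-fold.

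Several inflammatory cytokines were higher in tenotomy. Ccl3 (chr11:83647844-83649355, mm10) had 177 CPM in sham. It had 1120 CPM in tenotomy, 6.32-fold more (3.92 to 10.8), with UMIs in 7 of 29 and 54 of 172 cells. The tumour necrosis factor gene Tnf (chr17:35199381-35202007) had 29.5 CPM and 286 CPM, 9.71-fold (3.18 to 48.3), on 3 and 66 UMIs, and 1 cell held 33.3% of the tenotomy UMIs. Cxcl3 (chr5:90786103-90789600), a further ligand of Cxcr2, had 49.1 and 247 CPM, 5.03-fold (2.03 to 16.1), in 2 and 13 cells. At 1000 UMIs per cell, Ccl3 was seen in 20.7% (7.99 to 39.7) of sham and 29.1% (21.4 to 37.9) of tenotomy cells, against 2.06% of tenotomy endothelial-type cells, and the intervals overlap. Requiring an S100 share of at least 5% over all members lowered the fold of Tnf from 12.1 to 2.35 and that of Ccl3 from 8.66 to 5.1.

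Of the cytokines with the highest levels in these cells, Il1b and Cxcl2 moved little, and the value of Ccl4 depended on 1 sham cell, as given below. Il1b had 4210 and 4850 CPM, 1.15-fold (1.03 to 1.29), Cxcl2 6000 and 7370 CPM, 1.23-fold (1.12 to 1.35), and Ccl4 1550 and 2230 CPM, 1.44-fold (1.2 to 1.73). Over all members these were 1.7-fold, 1.76-fold and 2.01-fold. Il1rn had 698 and 707 CPM (1.01-fold, and 1.52-fold over all members) and Osm, oncostatin M, 501 and 525 CPM. Csf1, the growth factor of macrophages, had 58.9 and 221 CPM, 3.75-fold (1.61 to 10.7). Of 14 measured cytokines, 7 were up by at least 2-fold in tenotomy and 0 down, beside 14.9% and 4.19% of all measured genes. The median log2 fold was 1.22, beside 0.16 for all genes. Over all members 6 of 14 were up, beside 10.6% of all measured genes, and the median was 0.80. Among the 7 are Cxcl1 and Ccl2, of which single tenotomy cells held 44.1% and 66% of the UMIs and whose folds of 3.75 and 7.8 were 1.01 and 2.84 over all members.

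Within Retnlg-low cells Ccl3 was 12.6-fold (6.72 to 26.7) and Ccl4 8.47-fold (5.68 to 13.1) higher in tenotomy, while Il1b was 1.01-fold (0.862 to 1.19); without the deepest sham cell these were 8.6, 5.77 and 0.702. Within Retnlg-high cells the Ccl4 ratio was 0.492 (0.362 to 0.672), and 3.74 (1.83 to 8.87) without the 1 sham cell that held most of it. Over the whole restricted set Ccl4 was 2.26-fold higher (1.82 to 2.84) without that cell. Of the Tnf UMIs in tenotomy, 57 lay in Retnlg-low and 5 in Retnlg-high cells. The share of cells with at least 20 UMIs over Ccl3, Ccl4, Cxcl2 and Il1b after thinning was 24.1% (10.3 to 43.5) in sham and 21.3% (14.5 to 29.4) in tenotomy, and 0 of 25 and 3 of 305 among granule-gene-high cells.

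Part of the genes of NF-kappa B feedback and of cell survival were higher. Nfkbia, the inhibitor that NF-kappa B induces against itself, had 344 and 1140 CPM, 3.33-fold (2.33 to 4.88), and over all members 744 and 1170 CPM, 1.57-fold. Birc3, an inhibitor of cell death, was 7.06-fold (1.8 to 60.8) on 2 and 32 UMIs, and Sod2, the mitochondrial superoxide dismutase, 4.19-fold (1.51 to 16.2). Of 9 measured genes in the NF-kappa B list, 4 were past 2-fold upward and 0 downward (median 0.95). Among survival and apoptosis genes it was 4 of 9, with a median of 0.88, and over all members 6 of 11 higher and 2 lower. Gadd45b, a stress-induced gene, had 305 and 919 CPM, 3.02-fold (2.06 to 4.55), the death receptor Fas 58.9 and 208 CPM, 3.53-fold (1.51 to 10.1), and the pro-apoptotic Bcl2l11 98.2 and 243 CPM, 2.47-fold (1.25 to 5.43). Members with opposite known roles in cell death are among those higher. Mcl1, on which neutrophil survival depends, had 2380 and 2640 CPM, 1.11-fold (0.955 to 1.29).

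Of 5 measured specific granule genes outside the selection, 3 were at least 2-fold higher in tenotomy and 0 lower, with a median of 1.18. Of all measured genes 14.9% were higher and 4.19% lower, with a median of 0.16. Mmp8 had 521 and 1330 CPM, 2.56-fold (1.9 to 3.49), and was seen in 41.4% and 45.7% of cells at 1000 UMIs. Olfm4, carried by a subset of neutrophils, had 19.6 and 217 CPM on 2 and 50 UMIs, 11-fold (2.9 to 93.6), in 1 of 29 and 14 of 172 cells. Cd177, a surface protein of neutrophil granules, had 78.6 and 178 CPM, 2.26-fold (1.05 to 5.59), 3.64-fold over all members and 1.97-fold without the deepest sham cell. Ngp and Camp are limited by the selection to a number of UMIs per cell, which is a larger share of a shallow cell; Ngp had 68.8 and 581 CPM, 8.45-fold (5.05-fold over all members), and Camp 0 and 195 CPM, at least 6.62-fold (at least 10.9-fold). Lcn2 had 806 and 1460 CPM, 1.81-fold (1.42 to 2.33). Mmp8 was higher within Retnlg-high cells alone as well, with 1150 and 2530 CPM, 2.2-fold (1.56 to 3.17). Of 15 measured gelatinase granule and late maturation genes outside the selection, 14 stayed within 2-fold; Stfa2l1, a stefin of a family of near-identical genes, was the exception with 1620 and 780 CPM, a ratio of 0.481 (0.388 to 0.598), and 0.672 over all members.

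Receptors were mostly within 2-fold. Cxcr2, Csf3r and Il1r2, all part of the selection, had ratios of 0.82, 0.931 and 0.8. Cxcr4, the receptor that holds neutrophils in the marrow and returns to aged ones, had 924 and 611 CPM, a ratio of 0.662 (0.506 to 0.869), and C5ar1, the complement C5a receptor, 904 and 512 CPM, a ratio of 0.566 (0.427 to 0.752). Over all members these 2 ratios were 0.91 and 0.765. Fpr1, the receptor for formylated peptides, had 255 and 290 CPM. Of 7 measured chemoattractant receptors besides Cxcr2, only Ccrl2 was past 2-fold in either direction, with 167 and 559 CPM, 3.35-fold (2.01 to 5.93), and 5.08-fold over all members. Clec4n, dectin 2, a receptor for fungal mannans, had 157 and 494 CPM, 3.14-fold (1.86 to 5.69).

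Genes lower in tenotomy in the restricted set included intracellular enzymes and signalling genes. Gcnt1, a glycosyltransferase that builds the ligands of selectins, had 255 CPM in sham, with UMIs in 14 of 29 cells, and 52 CPM in tenotomy, in 12 of 172 cells, 4.91-fold lower (2.39 to 10.7). Pde4b, a phosphodiesterase that degrades cyclic AMP, had 501 and 143 CPM, 3.5-fold lower, and was seen in 31% (15.3 to 50.8) and 12.6% (7.38 to 19.7) of cells at 1000 UMIs, with 13.8% and 25.9% of endothelial-type cells. Ski, a repressor of transforming growth factor beta signalling, had 344 and 86.7 CPM, and Ugcg, which makes glucosylceramide, 413 and 121 CPM. Plin2, a coat protein of lipid droplets, had 698 and 260 CPM, a ratio of 0.373 (0.26 to 0.533). It was seen in 51.7% (32.5 to 70.6) and 22.8% (15.9 to 31.1) of thinned cells. These intervals do not overlap, but they count cells within 1 library per side and do not measure a difference between treatments. Plaur, the urokinase receptor, had 1460 and 685 CPM, a ratio of 0.468 (0.372 to 0.589), and 0.664 over all members. Heat shock genes rested on single cells: 1 sham cell held 87.8% of Hspa1b and 80% of Dnajb1 UMIs. Single sham cells also held 90.9% of Gal and 95.6% of Meg3 UMIs. Mpp7 (1030 and 338 CPM), Fosb (422 and 121 CPM) and Btbd9 (560 and 178 CPM) were among the first 12 lower genes too. Immediate early and stress genes had 5 of 20 lower and 2 higher, with a median of -0.13, and over all members 10 of 21 lower, with a median of -0.94. Of all measured genes 4.19% were lower and 14.9% higher, and over all members 10.4% were lower. Mitochondrially encoded genes were lower for 5 of 8, but the median share of mitochondrial UMIs per cell was 0.263% in sham and 0.313% in tenotomy, and the highest sham cell had 9.57%.

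**Figure D4:**
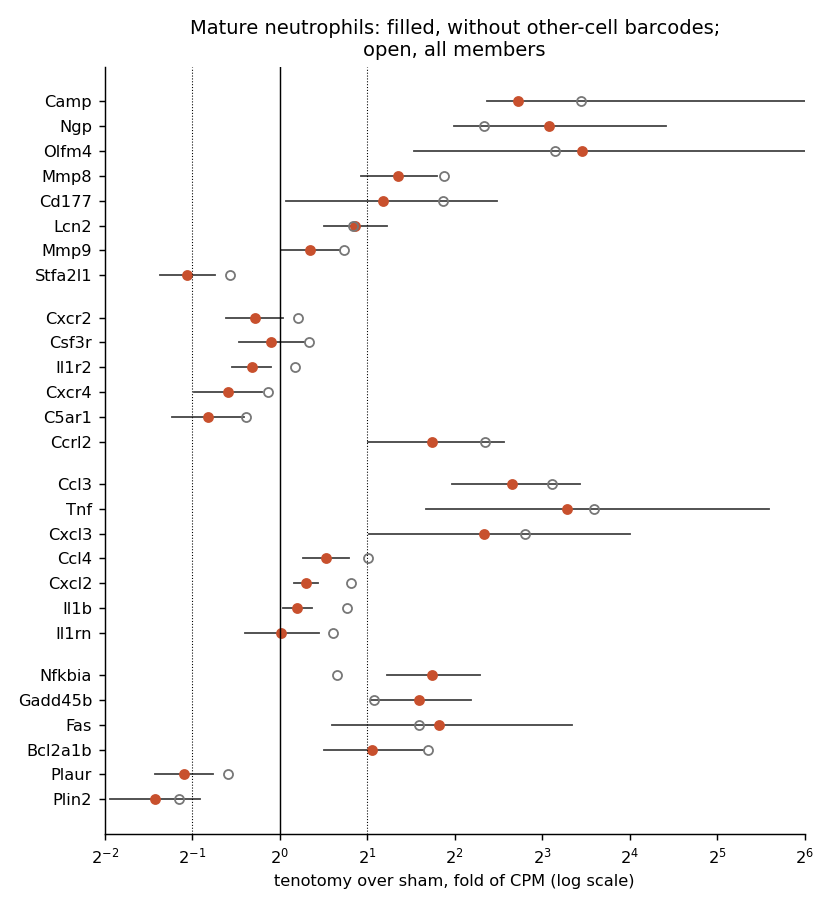
Fold of CPM, tenotomy over sham, on a log axis for genes grouped by role from granule genes (top) through receptors, cytokines and regulators; filled points are the restricted set with 95% counting intervals (cut at 64-fold for Camp and Olfm4), open points all members, and Camp is a lower bound. Ccl3 lies at 6.32-fold and Mmp8 at 2.56-fold, while Il1b and Il1rn lie near 1.

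Some genes higher in tenotomy are abundant in other cells of the library. Ctsb, a lysosomal protease, had 98.2 and 403 CPM, 4.1-fold (2.13 to 8.84), and Hmox1, heme oxygenase, 344 and 815 CPM, 2.37-fold (1.65 to 3.5), and 1.63-fold over all members. At 1000 UMIs Ctsb was found in 31.5% of tenotomy mature cells and in 41.3% of endothelial-type cells. Hmox1 was found in 39.4% and 37.8%. Transcripts made by the endothelial-type cells were not told apart from free RNA, so these shares do not give a level of free RNA. C1qb, a complement subunit of macrophages, was found in 0 of 29 sham and 15% (9.25 to 22.4) of tenotomy mature cells, and in 1.5% and 7.96% of endothelial-type cells. Cells with Csf1r and C1qa went from 6.35% to 38.7% of the libraries beside these changes, and their part in them was not tested. Ifitm3, an interferon-induced gene that blocks virus entry, had 373 and 1080 CPM, 2.9-fold (2.06 to 4.2) and 1.31-fold over all members, and was found in 94.4% of endothelial-type cells of tenotomy, which express it. Of 7 measured interferon response genes 4 were at least 2-fold higher, with a median of 1.06, but over all members 2 of 10 with a median of 0.44. For all measured genes the shares higher were 14.9% and, over all members, 10.6%. At least 10 UMIs of that list were found in 0 of 29 sham and 8 of 127 thinned tenotomy cells (6.3%, 2.76 to 12), and the former allows up to 11.9%.

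Mature neutrophils held a small part of all RNA, 0.376% of UMIs of kept sham cells and 0.264% in tenotomy, but the main part of some transcripts in sham. Of the library's Asprv1 UMIs, 91.6% lay in mature neutrophils in sham and 25.2% in tenotomy. For Acod1 the share was 75.4% and 15.3%, and for Clec4d 70.1% and 5.81%. Cells with Csf1r and C1qa held 13.8% of Clec4d UMIs in sham and 69.1% in tenotomy. Of Il1b, 11.4% and 2.23% lay in mature neutrophils and 63.5% and 51.7% in the Csf1r and C1qa cells. For Ccl3 the neutrophil share was 0.794% in sham and 1.72% in tenotomy, and for Cxcl2 3.78% and 0.713%. For Cxcr2, a gene of the selection, mature neutrophils held 64.5% in sham and 35.8% in tenotomy, and Csf1r and C1qa cells 0.935% and 3.82%.

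**Figure D5:**
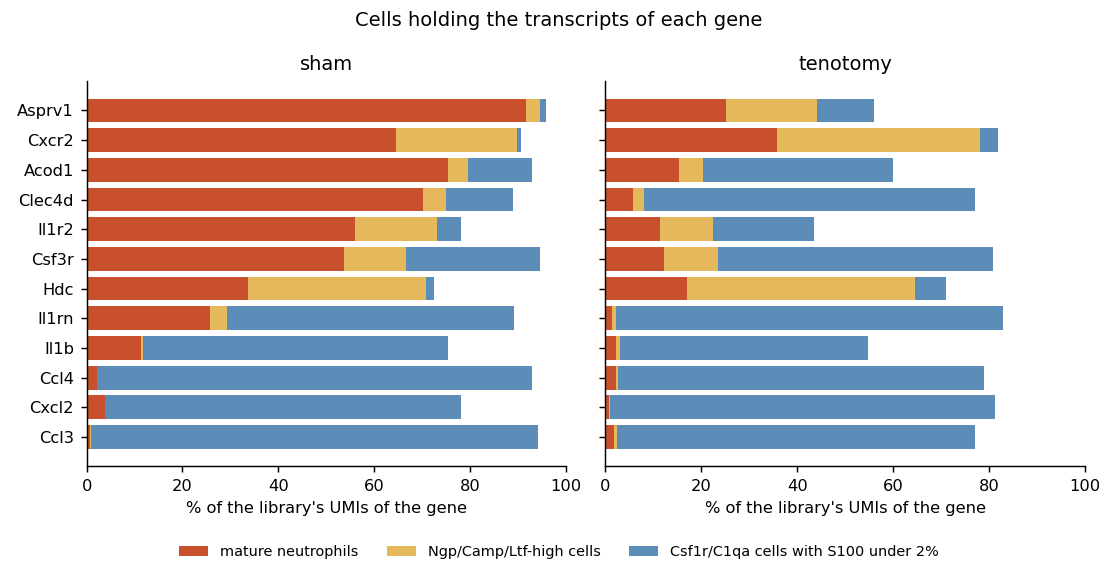
Bars give, for each gene, the percentage of the UMIs of a library's kept cells that lay in mature neutrophils, granule-gene-high cells and Csf1r and C1qa cells with a low S100 share, for sham (left) and tenotomy (right); the rest lay in other cells. The mature neutrophil part of Acod1 is 75.4% in sham and 15.3% in tenotomy.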

How the data were processed

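Single-cell RNA was measured in 1 sham and 1 tenotomy library. The authors deposited raw counts, that is, UMIs per gene and barcode with no normalization; the submitters' processing notes name Cell Ranger 4.0.0 and mm10. Totals were 47781353 and 94556283 UMIs. Coordinates are from GENCODE on mm10 and promoters from RefSeq. UMIs were summed over the cells of a library and scaled to CPM; folds have exact conditional binomial and shares exact Clopper-Pearson 95% intervals, ratios of shares log-scale intervals, all for counting error only. "Called" means at least 2-fold; with 1 library per group there is no test across samples. The members, gene lists and tests were chosen with earlier results of these data known. Genes were named from the first 12 each way by rank of the interval bound nearest to 1, and not all of these are named. The genes of the selection and up to 4 members of each list each way were added. The remaining names, among them Il1rn, Osm, Mcl1, Plin2, Plaur, Hdc and Ly6g, were chosen after the values were seen. So were the promoter motif of NF-kappa B type, the 0.5% limit, the Retnlg division and thinning before the selection. The values without single sham cells or without genes of the selection were also chosen then. Doublets were scored with scrublet in scanpy 1.11.5 at 0.212 and removed only as an alternative. Cells were thinned to 1000 UMIs, leaving out 45 of 172 restricted tenotomy cells and 0 of 29 sham cells. Endothelial-type cells (at least 3 UMIs of Pecam1 and Cdh5) were set beside them for free RNA, though their own transcripts count there too. Alternatives covered cell filters, limits of the selection, normalization and gene filters. The fold script was tested on simulated counts. Python 3.11.15, numpy 2.4.6, scipy 1.17.1 and pandas 2.3.3 were used.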

Additional observations from a re-analysis of the deposited data

How the results depend on the processing

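The ratio of mature neutrophil shares stayed between 2.42 and 4.08 over the alternatives. In tenotomy the ratio of granule-gene-high to mature cells, 1.83, was 2.42 with at least 1000 UMIs per cell and 2.31 with an S100 share of at least 5%. Genes at least 2-fold lower in tenotomy, 152 over all members, were 58 at the 5% S100 limit, 48 without barcodes with other-cell transcripts, 19 after thinning, 497 at 10 UMIs and 50 CPM, 1684 with no filter and 243 at 10 expected UMIs. Genes higher, 156, were 762 with the selection made after thinning, 89 after thinning, 343 at 10 UMIs and 988 with no filter. Against granule-gene-high cells, the 489 higher in sham were 117 after thinning, the 346 lower in sham were 539 at the 5% S100 limit and 57 after thinning, the 505 higher in tenotomy were 769 with the selection after thinning and 277 after thinning, and the 647 lower were 279 and 295. Fewer UMIs leave fewer genes to measure after thinning; the cause of the other changes was not tested. Selection after thinning took 39 sham and 162 tenotomy cells, of which 33 and 125 were members before and 4 and 12 had at least 3 UMIs of Csf1r and C1qa. Folds crossed 1 for Ankrd1, at 0.196 at the 5% S100 limit, 0.251 with under 3 UMIs of Ngp, Camp and Ltf and 0.288 after thinning. They also crossed 1 for Cxcl14 (0.981), Myoc (1.77) and Ogn (1.77) at the 5% S100 limit, and for Myoc (1.32) without other-cell barcodes. Over all members Ankrd1 had 0 UMIs in sham, and Myoc and Ogn had 0 in tenotomy. The crossed folds of Ankrd1, Myoc and Ogn thus rest on the floor of 3 UMIs, and no direction can be read from them. Directions turned for the median log2 fold of mitochondrially encoded genes (0.64) and Hsph1 (4.02) with the selection after thinning. Mature over granule-gene-high values of sham turned for Mpo (1.11 as a mean over cells, 3.47 thinned), Prtn3 (1.74), Ms4a3 (1.16) and Hist1h1e (1.74), all thinned and near 0 UMIs. Of the other values for single genes and lists, 1022 moved little and 248 moved without turning. The 29 restricted sham cells, with 101783 UMIs, limit every fold. No paired analysis was possible because each group has 1 library.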
